A study of Mus musculus with 36 samples.

Results

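The poly(I:C) response was examined in mouse embryonic fibroblasts homozygous for the N129D knock-in allele of Tbk1, by RNA sequencing of 6 of the 36 samples of the series. The 6 were chosen by label: the treated and the untreated culture of each homozygous line (E1.4, E2.2, E2.9), so that 3 treated libraries were set against 3 untreated libraries of the same lines. Treated cells had received poly(I:C), written pI:pC in the labels, for 4 h, and untreated cells had received nothing. All 6 libraries carry the genotype N129D/N129D, a knock-in for which the labels name no Cre or cell-type promoter. Heterozygous lines (N129D/wt, 4 lines) and WT lines (wt/wt, 3 lines), each treated and untreated in the same way, served only for comparison. Neither the dose of poly(I:C), nor its route into the cells, nor whether each line came from a separate embryo is stated in the labels. The lines are therefore not counted as separate embryos. A p-value measures the scatter left once line and treatment are accounted for. That scatter is pooled over 30 libraries of all genotypes, including those treated with antimycin/oligomycin, and is not that of the homozygous lines alone. A line may differ from another in more than its Tbk1 alleles.

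Poly(I:C) is a synthetic double-stranded RNA that stands in for viral RNA. In fibroblasts it is sensed by TLR3 in endosomes and by RIG-I and MDA5 in the cytosol, and both routes lead to TBK1, a kinase that phosphorylates IRF3 and so starts transcription of interferon beta, which in turn acts through its receptor on antiviral genes. The same sensors also activate NF-kB and MAP kinases, which drive chemokine, adhesion and immediate-early genes. N129D replaces an asparagine of TBK1 by an aspartate.

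The promoters of 6 genes on which the results turn are shown. Those of the interferon beta, antiviral and chemokine genes hold a binding motif of the IRF or NF-kB branch. The promoter of Hmgcs1, a cholesterol synthesis gene and not part of these branches, was searched only for a sterol regulatory motif. Each promoter is the window that RefSeq gives around the gene's start on GRCm38.p6, 250 bases before it to 50 after, read 5′ to 3′ on the gene's strand. In the promoters of the interferon beta gene and of 2 antiviral genes, capitals mark the IRF motif AAANNGAAA, sought on both strands. Its neighbouring matches overlap in Isg15.
Ifnb1 (chr4:88522745-88523044, minus strand): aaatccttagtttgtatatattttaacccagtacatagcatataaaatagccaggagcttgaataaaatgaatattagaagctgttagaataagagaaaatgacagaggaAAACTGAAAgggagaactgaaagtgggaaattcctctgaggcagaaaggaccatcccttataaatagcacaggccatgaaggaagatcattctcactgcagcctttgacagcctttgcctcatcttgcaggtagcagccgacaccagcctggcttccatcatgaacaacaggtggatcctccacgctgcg
Ifit1 (chr19:34640639-34640938, plus strand): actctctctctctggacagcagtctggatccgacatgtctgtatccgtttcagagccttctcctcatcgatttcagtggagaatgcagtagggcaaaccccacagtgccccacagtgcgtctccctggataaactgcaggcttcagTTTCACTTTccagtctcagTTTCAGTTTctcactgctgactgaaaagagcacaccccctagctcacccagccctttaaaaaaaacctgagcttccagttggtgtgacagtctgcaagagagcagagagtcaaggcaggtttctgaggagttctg
Isg15 (chr4:156200769-156201068, minus strand): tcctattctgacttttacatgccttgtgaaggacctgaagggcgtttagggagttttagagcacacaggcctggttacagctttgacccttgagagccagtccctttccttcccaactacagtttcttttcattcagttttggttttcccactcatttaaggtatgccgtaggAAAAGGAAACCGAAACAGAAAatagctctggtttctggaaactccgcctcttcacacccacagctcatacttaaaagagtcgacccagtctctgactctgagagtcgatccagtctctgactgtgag
In the promoters of 2 neutrophil chemokines, capitals mark the NF-kB motif GGGANTTTC, sought on both strands. Both motifs were sought in the interferon beta, antiviral and chemokine promoters, and each promoter matched only the motif marked. Sites that depart from these letters are not marked, so an unmarked motif is not shown to be absent.
Cxcl1 (chr5:90890995-90891294, plus strand): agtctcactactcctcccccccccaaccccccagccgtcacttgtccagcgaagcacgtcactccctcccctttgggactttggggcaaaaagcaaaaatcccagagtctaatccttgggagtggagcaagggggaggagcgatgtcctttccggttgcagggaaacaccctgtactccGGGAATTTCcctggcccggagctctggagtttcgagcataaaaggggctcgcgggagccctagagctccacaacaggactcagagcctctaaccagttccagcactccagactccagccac
Cxcl2 (chr5:90903649-90903948, plus strand): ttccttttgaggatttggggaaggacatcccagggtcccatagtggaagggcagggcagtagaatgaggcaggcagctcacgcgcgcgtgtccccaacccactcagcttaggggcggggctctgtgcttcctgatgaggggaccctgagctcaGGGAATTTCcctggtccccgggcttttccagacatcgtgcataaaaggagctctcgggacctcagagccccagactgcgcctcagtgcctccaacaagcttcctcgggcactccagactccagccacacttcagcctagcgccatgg
In the promoter of a cholesterol synthesis gene, capitals mark the sterol regulatory motif TCACNCCAC, sought on both strands.
Hmgcs1 (chr13:119690101-119690400, plus strand): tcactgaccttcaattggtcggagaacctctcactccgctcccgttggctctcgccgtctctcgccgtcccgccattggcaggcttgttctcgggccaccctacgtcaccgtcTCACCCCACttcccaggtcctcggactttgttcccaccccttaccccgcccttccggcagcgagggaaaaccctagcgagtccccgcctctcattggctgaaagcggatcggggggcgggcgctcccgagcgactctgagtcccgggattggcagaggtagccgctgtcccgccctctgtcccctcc
Of 27025 genes with a promoter of this length, 12.1% held the IRF motif in at least 1 promoter, 1.29% the NF-kB motif and 1.44% the sterol motif. These matches are descriptions of the sequence, and no binding was measured.

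The homozygous libraries held between 4309127 and 8024569 counts. Fibroblast markers were abundant in all 6 (summed level of 13 markers between 12293 and 19032 CPM, that is, counts per 1000000 counts). Line E2.9 stood apart. There all 18 macrophage markers had counts, at a summed 305 CPM with poly(I:C) and 292 CPM without. In line E1.4 the sums were 3.78 CPM treated and 6.65 CPM untreated, and in line E2.2 they were 7.01 CPM and 6.40 CPM. Of the 18 markers, 9 and 7 had counts in treated E1.4 and E2.2, and 6 and 5 in the same lines untreated. Markers at 0 in the 4 libraries of E1.4 and E2.2 included Adgre1, C1qc, Ptprc, Cx3cr1 and Spi1. In the treated and untreated comparison libraries the sum ran from 3.97 to 6.16 CPM in WT lines and from 4.36 to 70.5 CPM in heterozygous lines. Macrophage transcripts were thus not confined to E2.9, and their part in the comparisons with heterozygous lines was not tested. None of the 18 markers passed the test for a change with poly(I:C) in the homozygous lines. Counts over gene lists are therefore also given without line E2.9 where it moved them.

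Tbk1 itself (chr10:121546455-121586787, minus strand, GRCm38) was expressed in every homozygous library. Its level was 37.1, 35.5 and 38.6 CPM in treated E1.4, E2.2 and E2.9, against 40.7, 46.3 and 48.4 CPM in the same lines untreated. The treated libraries all lay below the untreated ones, and the change of -0.27 ± 0.13 (log2 fold change ± SE) did not pass the test (adjusted p = 0.215). The counts say nothing on the base change that defines the allele. Throughout, adjusted p is that of edgeR's quasi-likelihood test with lines paired and Benjamini-Hochberg adjustment over all genes tested, log2 fold changes are those of this fit with their SE, and a gene is said to have risen or fallen where adjusted p was under 0.05.

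Poly(I:C) changed 1309 of 13364 genes in the homozygous lines. Of all genes tested 763 rose (5.71%) and 546 fell (4.09%). In 1284 of the 1309 the direction was the same in all 3 lines, and 228 changed by more than 1 on the log2 scale, of which 161 rose and 67 fell. Among the genes that rose most were chemokines, antiviral genes, histone genes and genes of activated macrophages, and among those that fell most were long non-coding RNAs. The number of calls rested on pairing and on the lines: without the replicate block, that is with lines not paired, 171 genes passed (74 rose and 97 fell), and without line E2.9, E2.2 or E1.4 the number was 418, 742 or 2727. The share of all genes that rose was 0.554% without pairing, 1.95% without E2.9, 3.57% without E2.2 and 11% without E1.4, and counts of list members in those fits are to be read against these shares.

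**Figure D1:**
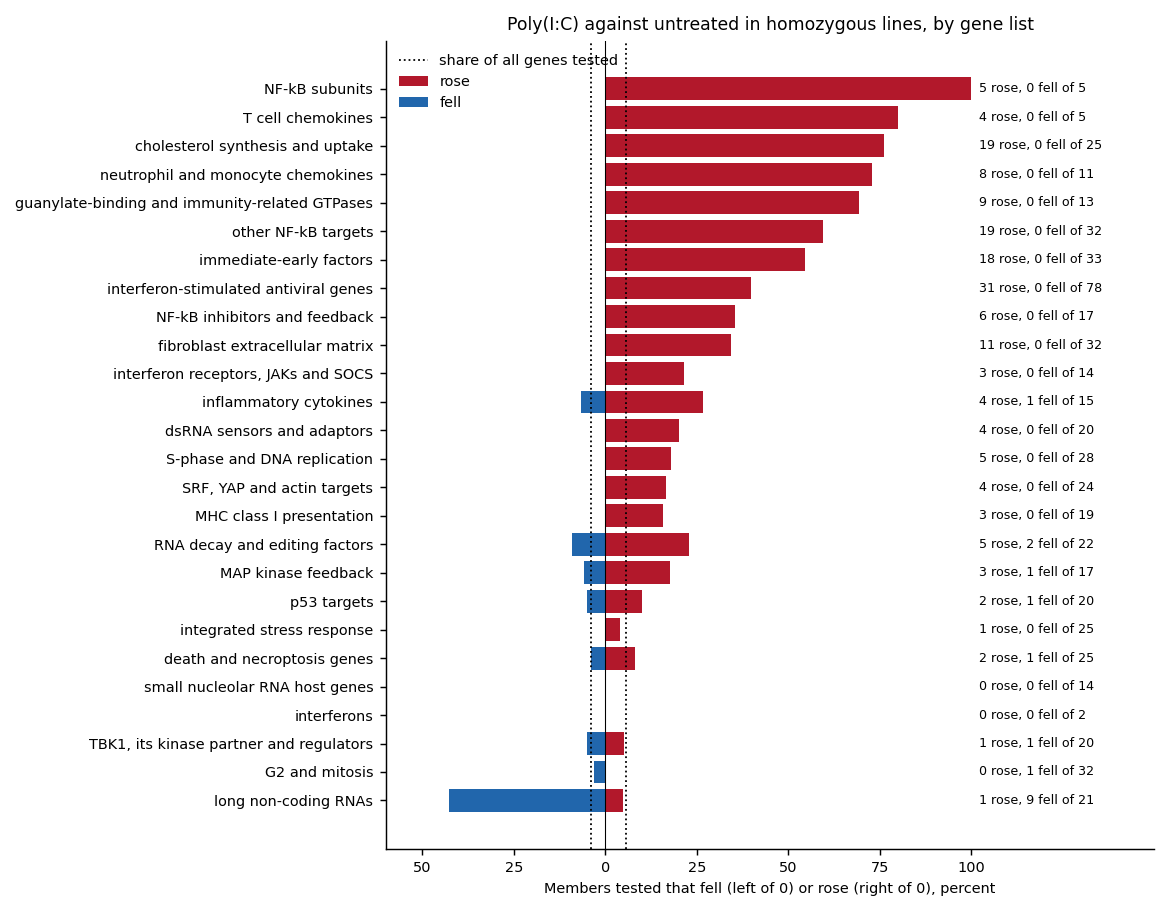
Share of the tested members of 26 gene lists that rose (red, right of 0) or fell (blue, left of 0) with poly(I:C) in the homozygous lines, in percent, with the counts at the right and dotted lines at the shares over all genes tested. All 5 NF-kB subunits and 19 of 25 cholesterol genes rose, against 31 of 78 interferon-stimulated antiviral genes, and 9 of 21 long non-coding RNAs fell.

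The interferon beta gene Ifnb1 (chr4:88522025-88522774, minus strand) was barely detected after poly(I:C). It had 2, 0 and 3 counts in treated E1.4, E2.2 and E2.9 (homozygous), against 0 in each of them untreated. Pooled over the 3 lines this is at least 2.30-fold higher, with the untreated group set to a floor of 3 counts in all, and the test did not pass (adjusted p = 0.134). With the same treatment the heterozygous lines had 136, 436, 45 and 57 counts and the WT lines 173, 46 and 103 counts, and all 7 were at 0 untreated. The lowest of these treated libraries, at 45 counts, lay above the highest homozygous one. The fitted difference in response did not pass (adjusted p = 1 against either genotype), in a fit where every untreated library was at 0. In bulk RNA, fewer responding cells and less RNA per cell cannot be told apart. Of the 19 interferons listed, only 2 had enough counts to be tested and neither passed.

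Of the 5 chemokines tested that attract T cells, 4 rose, against 5.71% of all genes: Cxcl9, Cxcl10, Cxcl11 and Ccl5. Cxcl10 (chr5:92346638-92348889) was at 55.5, 132 and 216 CPM in treated E1.4, E2.2 and E2.9 (homozygous), against 4.93, 15.9 and 7.93 CPM untreated. Treated and untreated libraries did not overlap, and the log2 fold change was 3.79 ± 0.38 (adjusted p = 7.94e-06). The log2 fold change in WT lines was 3.76 (difference 0.03 ± 0.45, adjusted p = 1). The level was lower: the treated homozygous lines averaged 134 CPM, treated WT lines 1164 CPM and untreated WT lines 86.5 CPM, and treated homozygous and untreated WT libraries overlapped. Ccl5 averaged 12.6 ± 9.20 CPM treated and 1.08 ± 0.149 CPM untreated (SD, n = 3 each), and line E1.4 moved least, with 1.95 CPM treated and 0.986 CPM untreated. Cxcl9 had 1, 1 and 15 counts and Cxcl11 1, 4 and 6 counts in the treated lines, against 0 in each untreated line. Pooled, Cxcl9 was at least 7.81-fold and Cxcl11 at least 5.06-fold higher. Without line E2.9 2 of the 5 rose, against 1.95% of all genes. The median log2 fold change of the 5 was 3.79, or 2.97 with the genes at 0 set to their bounds, against 0.02 over all genes tested.

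Interferon-stimulated antiviral genes rose in part: 31 of 78 tested passed and none fell, against 5.71% of all genes. The median log2 fold change over the 78 was 0.90 in homozygous lines, 1.5 in heterozygous lines and 1.53 in WT lines. In heterozygous lines 71 of the 78 rose, against 8.81% of all genes there, and in WT lines 70, against 7.53%. These counts are not a test of a difference between genotypes. The median untreated level of the list was 2.9 CPM in homozygous, 28.3 CPM in WT and 35.3 CPM in heterozygous lines. A given change passes less readily at a lower level, and the part of this in the counts was not tested. Ifit1 (chr19:34640871-34650009), which binds viral RNA caps, stood at 14.2, 34.3 and 47.0 CPM in the treated homozygous lines, against 1.35, 4.89 and 1.64 CPM untreated. All treated values lay above all untreated ones (log2 fold change 3.61 ± 0.49, adjusted p = 0.000191). Isg15 (chr4:156199424-156200818), a ubiquitin-like modifier, was at 10.6, 35.1 and 31.2 CPM treated, against 4.68, 9.54 and 7.18 CPM untreated, and rose by 1.77 ± 0.29 (adjusted p = 0.000895).

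Among the same genes, Rsad2, whose product viperin makes an antiviral nucleotide, was at 2.74, 3.87 and 20.1 CPM treated, against 0, 0.376 and 0.630 CPM untreated. Its neighbour Cmpk2, a nucleotide kinase, was at 1.95, 6.04 and 10.7 CPM treated, against 0.123, 0.502 and 0.126 CPM untreated. Both rose with no overlap of treated and untreated libraries (log2 fold changes 4.65 ± 0.63 and 4.51 ± 0.67). Parp14, an ADP-ribosyltransferase, rose by 2.79 ± 0.40 (adjusted p = 0.000321), though its treated value in line E1.4, 3.65 CPM, lay within the untreated range of 0.739 to 4.28 CPM. The GTPase Mx2 had 34 counts over the treated lines, against 2 over the untreated, a ratio of 23.4 with a counting interval from 6.01 to 201. Intervals of this kind and floors cover counting error only.

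The other 47 members of the list did not pass. Ifit2, named after its values were seen, averaged 27.4 ± 6.87 CPM treated and 27.4 ± 2.0 CPM untreated (log2 fold change 0.01 ± 0.30, adjusted p = 0.996). Pml, also chosen after its values were seen and coding for the scaffold of nuclear bodies, averaged 37.5 ± 3.63 CPM and 34.5 ± 2.75 CPM (0.12 ± 0.14, adjusted p = 0.641). The checkpoint ligand Cd274, chosen likewise, was at 1.82, 1.69 and 5.16 CPM treated, against 1.48, 1.38 and 1.51 CPM untreated (0.94 ± 0.44, adjusted p = 0.191).

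**Figure D2:**
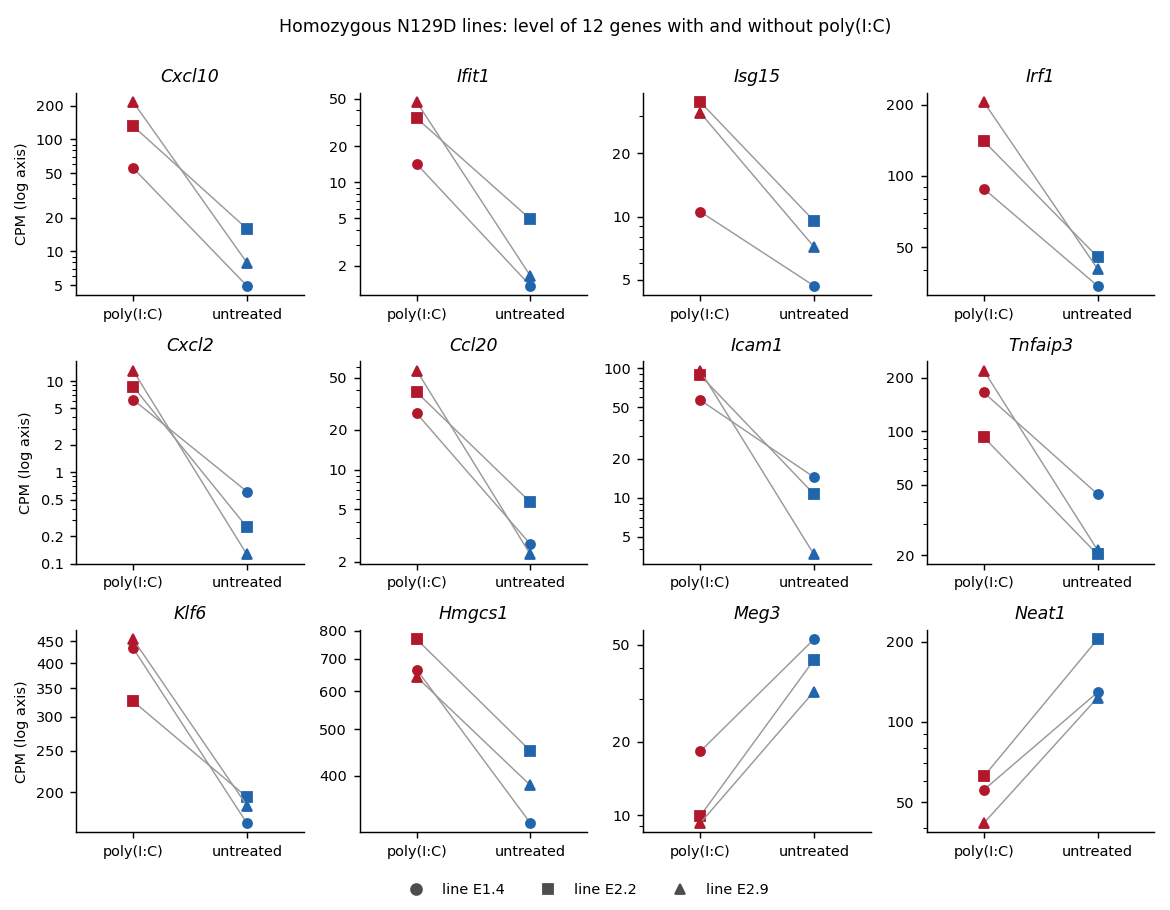
Level of 12 genes in CPM (log axis) in each homozygous line, treated at the left and untreated at the right, with a line joining the libraries of 1 line. In 10 panels every line is higher with poly(I:C), as for Cxcl10 with 55.5 to 216 CPM treated and 4.93 to 15.9 CPM untreated, while Meg3 and Neat1 are lower in every line.

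The lines differed in their antiviral response. The list median of the per-line log2 response, computed with a pseudocount of 0.5 CPM, was 0.39 in E1.4, 0.42 in E2.2 and 1.10 in E2.9, against 0.95 to 1.98 in heterozygous lines and 1.27 to 1.67 in WT lines. Without E2.9, 8 of the 78 genes rose, without E2.2 24 and without E1.4 33, where the shares of all genes that rose were 1.95%, 3.57% and 11%. In the unpaired fit none did. The part of the macrophage transcripts of E2.9 in this was not tested.

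Among interferon regulatory factors, Irf1, Irf7 and Irf9 rose. Irf1, which NF-kB can induce, was at 88.3, 140 and 206 CPM treated, against 34.2, 45.4 and 40.4 CPM untreated, and rose by 1.81 ± 0.20 (adjusted p = 2.94e-05). Irf7, the amplifier of interferon transcription, averaged 4.71 ± 3.67 CPM treated and 1.25 ± 0.208 CPM untreated (adjusted p = 0.0482). In WT lines its means were 111 CPM treated and 25.2 CPM untreated. Irf3, the direct substrate of TBK1, averaged 29.9 ± 4.40 CPM treated and 36.3 ± 7.50 CPM untreated, and did not pass (adjusted p = 0.292).

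Of 20 double-stranded RNA sensors and adaptors 4 rose, against 5.71% of all genes. They were Ddx58 (RIG-I), Ifih1 (MDA5), Trim25, a ligase that acts on RIG-I, and Zbp1, which had 0, 2 and 6 counts treated and none untreated. Without line E2.9 1 of the 20 rose, against 1.95% of all genes. Ddx58 was at 27.6, 49.6 and 70.9 CPM treated, against 15.8, 27.2 and 22 CPM untreated (1.15 ± 0.21, adjusted p = 0.00214). Tlr3, the endosomal sensor, averaged 5.08 ± 2.07 CPM treated and 3.75 ± 0.701 CPM untreated (adjusted p = 0.442). Of 20 genes around TBK1, Tnip1, an A20 partner, rose by 0.87 ± 0.15 and Calcoco1 fell by 0.67 on the log2 scale (SE 0.14), shares close to those of all genes (5.71% rose and 4.09% fell). The kinase closest to TBK1, Ikbke, averaged 4.25 ± 0.679 CPM treated and 4.21 ± 0.986 CPM untreated. Of 14 receptor, JAK and SOCS genes 3 rose, against 5.71% of all genes, with Usp18, a brake on the interferon receptor, at 2.62 ± 0.68. Without E2.9 none of the 14 did.

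Genes of guanylate-binding proteins and immunity-related GTPases, which attack the membranes around intracellular microbes, rose in 9 of 13 cases, against 5.71% of all genes. Gbp2 was at 9.12, 48.1 and 77.5 CPM treated, against 3.20, 7.40 and 7.18 CPM untreated (2.76 ± 0.40, adjusted p = 0.000321). Gbp5 had 72 counts over the treated lines and 2 over the untreated, a ratio of 49.6 with a counting interval from 13.3 to 418. Gbp6 had 29 and 2 counts (counting interval of the ratio 5.06 to 173). Without line E2.9, 2 of the 13 rose, against 1.95% of all genes. Tgtp1, with 26, 9 and 22 counts treated and none untreated (at least 26.2-fold higher), is uncertain: its near-identical copy Tgtp2 had 5, 6 and 24 counts treated and 24, 6 and 5 untreated, and the counting shares reads between them.

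Of 19 genes of antigen presentation on MHC class I, 3 rose, against 5.71% of all genes: H2-Q6, the transporter chaperone Tapbp and the peptide trimmer Erap1. Tapbp averaged 103 ± 38.4 CPM treated and 55.5 ± 5.81 CPM untreated (0.84 ± 0.20, adjusted p = 0.0111). H2-K1 averaged 135 ± 39.9 CPM treated and 101 ± 5.58 CPM untreated (adjusted p = 0.194). In WT lines 15 of the 19 rose, against 7.53% of all genes there, and in heterozygous lines 14, against 8.81%. Line E1.4 moved least: the list median of its log2 response was -0.22, against 0.44 in E2.2 and 0.56 in E2.9. Without E1.4, 8 of the 19 rose, without E2.2 2 and without E2.9 1, where 11%, 3.57% and 1.95% of all genes did.

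The level reached with poly(I:C) was also set against that of untreated WT lines. For 54 of the 78 antiviral genes, all 3 treated homozygous libraries lay below all 3 untreated WT libraries, against 15.9% of all genes tested, and for none did they lie above, against 15.1% of all genes. The median level over the list was 9.67 CPM in treated and 2.9 CPM in untreated homozygous lines. In WT lines it was 91.5 CPM treated and 28.3 CPM untreated. Ifit1 shows the gap, with a mean of 31.9 CPM in treated homozygous lines, against 963 CPM in treated and 124 CPM in untreated WT lines. For 7 of the 13 GTPases the treated homozygous libraries were also below untreated WT libraries. They lay above them for 8 of 11 neutrophil and monocyte chemokines, 15 of 32 NF-kB targets, 24 of 33 immediate-early genes and 23 of 25 cholesterol genes. This is a comparison between lines of different genotype and is described here with no test.

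**Figure D3:**
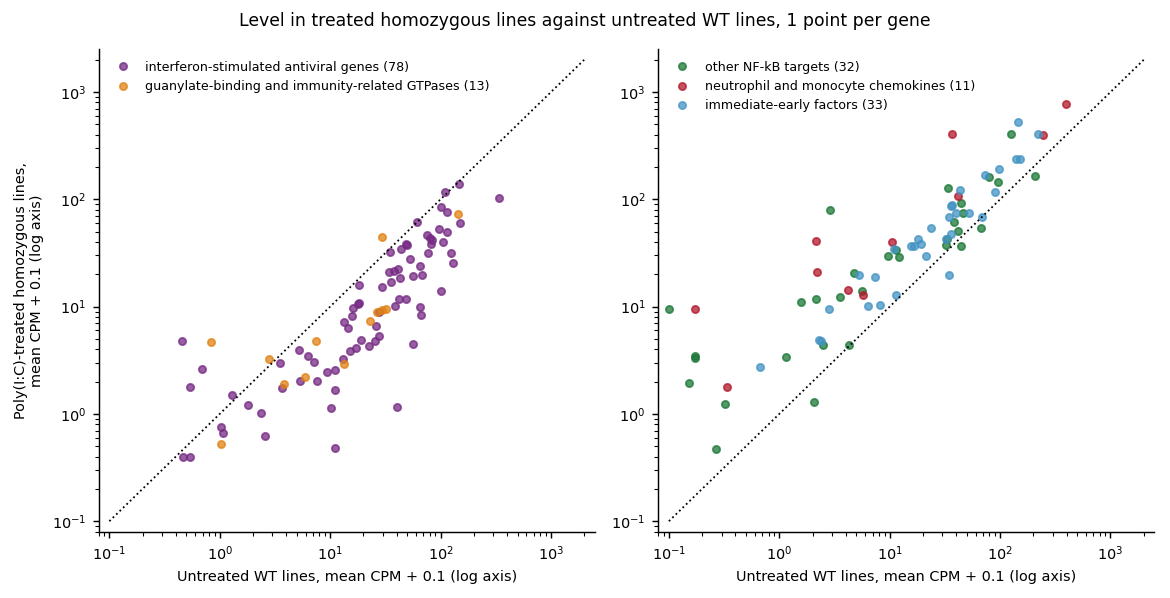
Mean level of each gene in treated homozygous lines against untreated WT lines, in CPM plus 0.1 on log axes, with interferon-stimulated genes at the left, NF-kB, chemokine and immediate-early genes at the right, and a dotted line at equality. Most points at the left lie under the line (54 of 78 antiviral genes without overlap of the libraries), and most at the right lie above it.

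Chemokines that draw neutrophils and monocytes rose in 8 of 11 cases, against 5.71% of all genes, and none fell. Cxcl2 (chr5:90903871-90905938), whose promoter is shown above, was at 6.25, 8.70 and 13 CPM in treated homozygous lines, against 0.616, 0.251 and 0.126 CPM untreated. It rose by 4.73 ± 0.63 (adjusted p = 0.000167) with no overlap. Its neighbour Cxcl1 (chr5:90891241-90893115) was at 6.51, 18.1 and 37.7 CPM treated, against 0.123, 2.38 and 2.52 CPM untreated (3.67 ± 0.45, adjusted p = 6.91e-05). Ccl20 (chr1:83116766-83119167), the CCR6 ligand, was at 26.7, 38.7 and 56.4 CPM treated, against 2.71, 5.65 and 2.27 CPM untreated (3.56 ± 0.44, adjusted p = 6.95e-05).

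The monocyte chemokine Ccl2 reached 223, 310 and 677 CPM in the treated homozygous lines, against 46.5, 43.7 and 39.7 CPM untreated (3.21 ± 0.45, adjusted p = 0.000257). Treated WT lines averaged 427 CPM and untreated WT lines 36.6 CPM, and the difference in response was -0.43 ± 0.61 (adjusted p = 0.90). The macrophage growth factor Csf1 averaged 398 ± 110 CPM treated and 225 ± 40.1 CPM untreated (0.81 ± 0.12). Without E2.9, 7 of the 11 rose, against 1.95% of all genes, and 5 rose in the unpaired fit, against 0.554%.

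All 5 NF-kB subunits rose, against 5.71% of all genes. Relb rose by 1.08 ± 0.23, Nfkb2 by 0.98 ± 0.16, Rel by 0.72 ± 0.19, Nfkb1 by 0.63 ± 0.12 and Rela by 0.47 ± 0.12. Their feedback inhibitors rose in 6 of 17 cases, against the same 5.71%. Tnfaip3 (A20, chr10:19000910-19015657), which removes ubiquitin from the signalling complex, was at 166, 92.6 and 220 CPM treated, against 44.2, 20.2 and 21.4 CPM untreated. The groups did not overlap (2.54 ± 0.30, adjusted p = 5.69e-05), and the response in WT lines was 2.44 (difference 0.09 ± 0.42, adjusted p = 0.98). Nfkbia (IkB alpha) was at 79.1, 108 and 214 CPM treated, against 38.0, 46.9 and 54.4 CPM untreated (1.46 ± 0.24, adjusted p = 0.000851). Nfkbie rose by 2.11 ± 0.26 and Bcl3 by 1.5 ± 0.34. Without E2.9 2 of the 5 subunits and 4 of the 17 inhibitors rose, against 1.95% of all genes. In the unpaired fit no subunit and 3 inhibitors rose, against 0.554% of all genes.

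Of 32 other NF-kB targets 19 rose, against 5.71% of all genes, and none fell, at a median of 1.03 over the 32. Without E2.9 8 rose, against 1.95% of all genes. The adhesion molecule Icam1 (chr9:21015985-21028817) was at 56.7, 88.0 and 95.6 CPM treated, against 14.4, 10.7 and 3.65 CPM untreated (3.14 ± 0.37, adjusted p = 5.03e-05). Vcam1, another adhesion molecule, was at 286, 307 and 632 CPM treated, against 138, 121 and 176 CPM untreated (1.42 ± 0.24). Sele, Traf1 and Gadd45b rose by 3.68 ± 0.53, 2.67 ± 0.38 and 1.56 ± 0.24. The prostaglandin synthase gene Ptgs2 averaged 165 ± 120 CPM treated and 128 ± 92.6 CPM untreated and did not pass (adjusted p = 0.0755).

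Some calls rested on line E2.9, which holds the macrophage transcripts. Acod1, the itaconate synthase gene of activated macrophages, had 5, 1 and 214 counts in treated E1.4, E2.2 and E2.9, against 0, 0 and 3 untreated. Clec4e, a macrophage receptor, had 2, 0 and 158 counts treated, against 0, 0 and 4 untreated. Both passed the test (adjusted p = 4.46e-06 and 0.00102), and nearly all their counts came from E2.9 treated. Tnf had 1, 2 and 11 counts treated and none untreated, at least 6.43-fold higher. The part of the macrophage transcripts in these 3 results was not tested.

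Of 15 cytokines other than chemokines 4 rose (Tnf, Lif, Il1rn and Hbegf), against 5.71% of all genes, and 1 fell. Without line E2.9 none of the 15 rose. Lif was at 17.7, 35.1 and 99.2 CPM treated, against 8.38, 17.8 and 23.8 CPM untreated (1.5 ± 0.28, adjusted p = 0.00233). Clcf1, of the same family, fell by 0.70 on the log2 scale (SE 0.13). Il6 was at 4.17, 1.45 and 2.31 CPM treated, against 1.23, 1.0 and 1.13 CPM untreated. The libraries did not overlap, yet the change of 1.24 ± 0.48 missed the threshold (adjusted p = 0.112).

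Immediate-early transcription factors rose in 18 of 33 cases, against 5.71% of all genes, and 14 rose without E2.9, against 1.95%. The list medians of the per-line log2 response were 0.73, 0.66 and 0.98 in E1.4, E2.2 and E2.9. Klf6 was at 434, 326 and 455 CPM treated, against 170, 195 and 186 CPM untreated (1.13 ± 0.11, adjusted p = 5.23e-06). Fosl2 rose by 0.85 ± 0.10, Klf10 by 1.17 ± 0.14 and Bhlhe40 by 1.0 ± 0.13. Of 17 MAP kinase feedback genes 3 rose, against 5.71% of all genes, led by Errfi1 at 1.15 ± 0.22, an inhibitor of the EGF receptor. Spred3 fell by 0.73 on the log2 scale (SE 0.21). Without E2.9 none of the 17 rose or fell.

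**Figure D4:**
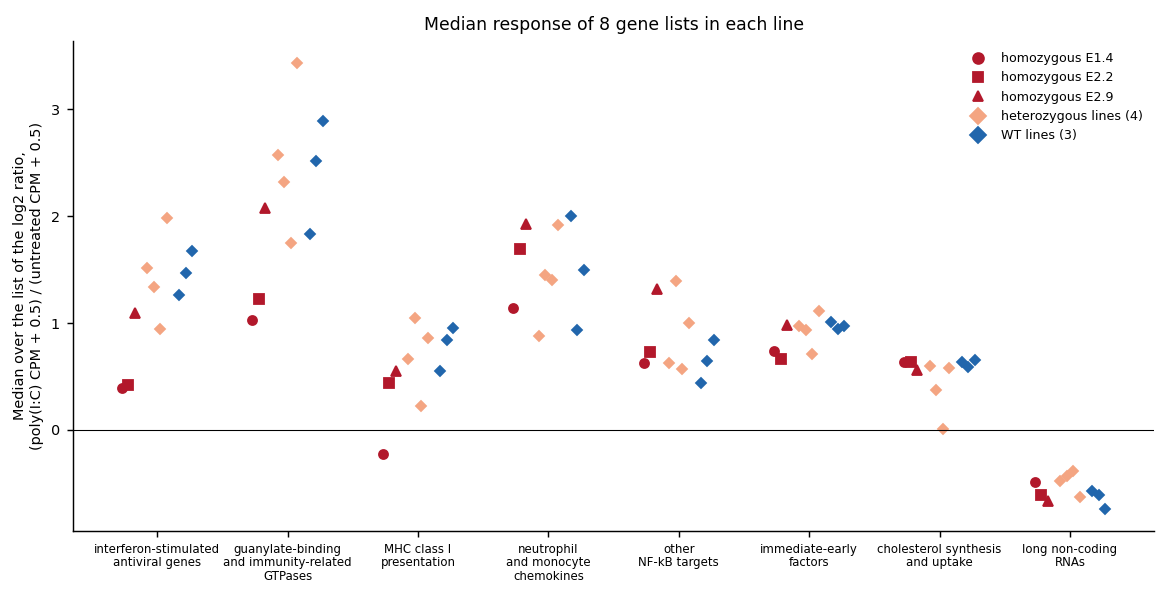
Median over each of 8 gene lists of the log2 ratio of treated to untreated level (pseudocount 0.5 CPM), 1 point per line, with homozygous lines in red, heterozygous in orange and WT in blue. For antiviral genes the homozygous medians are 0.39, 0.42 and 1.10, with heterozygous lines between 0.95 and 1.98 and WT lines between 1.27 and 1.67, so that E2.9 lies within the heterozygous range and below the WT lines. For neutrophil and monocyte chemokines and for long non-coding RNAs all 3 genotypes overlap.

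Cholesterol synthesis and uptake genes rose in 19 of 25 cases, against 5.71% of all genes, and none fell. The median log2 fold change was 0.56, against 0.63 in WT and 0.40 in heterozygous lines. Hmgcs1 (chr13:119690379-119708260), an early enzyme of the pathway whose promoter is shown above, was at 665, 769 and 642 CPM in treated homozygous lines, against 319, 451 and 382 CPM untreated. The groups did not overlap (0.86 ± 0.14, adjusted p = 0.00105). Lss, which closes the sterol rings, rose by 0.88 ± 0.13, Cyp51 by 0.70 ± 0.11 and Sqle by 0.60 ± 0.10. The list medians of the 3 lines were 0.63, 0.64 and 0.56. Without E2.9, 14 rose, against 1.95% of all genes, and in the unpaired fit none did. For 21 of the 25, however, the treated homozygous libraries all lay above the untreated ones, against 8.49% of all genes.

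Of 21 long non-coding RNAs 9 fell, against 4.09% of all genes, and 1 rose. Without line E2.9, 7 fell, as did 149 of the 13364 genes, and none rose. In the unpaired fit 5 fell, as did 97 of the 13364. Meg3 (chr12:109541001-109571726), an imprinted transcript, was at 18.2, 9.91 and 9.26 CPM treated, against 52.6, 43.3 and 32.1 CPM untreated. The libraries did not overlap (-1.79 ± 0.15, adjusted p = 3.38e-06). Neat1 (chr19:5824708-5845478), the RNA core of paraspeckles, was at 55.5, 62.4 and 41.7 CPM treated, against 129.1, 204 and 123 CPM untreated (-1.5 ± 0.22, adjusted p = 0.00038). Mirg, Mir17hg, Firre and Dnm3os fell by 1.60, 1.51, 1.49 and 1.20 on the log2 scale. Meg3 and Neat1 changed in WT lines by -1.98 and -1.77, and the differences of 0.19 ± 0.22 and 0.27 ± 0.31 did not pass (adjusted p = 0.88 each).

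Outside these lists, the genes that rose most included Trim17, a ubiquitin ligase, with 60 counts treated and 2 untreated (ratio 41.4, counting interval 11 to 349), and the histone gene Hist1h2be, with 95 counts treated and 10 untreated. Among those that fell most were Gpr162, Rhebl1, Gm12258, Tmc4, Lekr1 and Spaca6, with log2 fold changes between -1.87 and -1.54, none of which overlapped between treated and untreated libraries. Gm44777 was led by 1 library, with 2, 0 and 4 counts treated and 144, 7 and 6 untreated. Gm14296 was at 3.65, 1.93 and 10.7 CPM treated, against 25.4, 24 and 11.7 CPM untreated. Fibroblast matrix genes rose in 11 of 32 cases, against 5.71% of all genes, with Col1a1 at 0.53 ± 0.13. Actin, SRF and YAP targets rose in 4 of 24, DNA replication genes in 5 of 28 and RNA decay factors in 5 of 22, against the same 5.71%. Of the RNA decay factors 2 fell, against 4.09% of all genes. Without E2.9 5 matrix genes, 4 of the actin, SRF and YAP targets, 1 replication gene and none of the RNA decay factors rose. Of all genes 1.95% did. No RNA decay factor fell in that fit. Death genes rose in 2 of 25 (Zbp1 and Fas) and p53 targets in 2 of 20 (Btg2 and Plk2), with 1 of each falling, shares near those of all genes (5.71% and 4.09%). Without E2.9 no death gene rose or fell, while 2 p53 targets rose and none fell. Of 25 integrated stress response genes only Atf3 rose, of 32 mitosis genes only Nusap1 changed, falling by 0.26 on the log2 scale, and none of 14 small nucleolar RNA host genes passed. Without E2.9 no mitosis gene passed.

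Whether the response of homozygous lines differed from that of WT or heterozygous lines was tested for each gene as the difference of the responses. Both tests use the same homozygous libraries. Against WT lines 0 of 13364 genes passed in edgeR (0%), while 742 had an unadjusted p under 0.05, and 14 passed in DESeq2. Against heterozygous lines 1 gene passed (0.00748%), 485 had an unadjusted p under 0.05, and 20 passed in DESeq2. The DESeq2 passes include Gm14440 and Gm6505 against WT lines, at log2 differences of 43.37 and 43.85. They also include Gm10233 against heterozygous lines, at 52.19. Differences of that size exceed any ratio these counts can give, and these genes did not pass in edgeR. Among antiviral genes, 28 of 78 had a lower response than in WT lines at an unadjusted p under 0.05, where 2.19% of all genes did, and 29 of 78 had a lower response than in heterozygous lines, where 1.89% did. None of these passed after adjustment in edgeR. In DESeq2 6 of the 78 passed as lower than in WT lines, against 0.0898% of all genes, and 7 as lower than in heterozygous lines, against 0.142%. At an unadjusted p under 0.05 in edgeR, 9 of the 19 MHC class I genes and 4 of 33 immediate-early genes had a lower response than in WT lines. None of 11 neutrophil and monocyte chemokines or 25 cholesterol genes did, and 2.19% of all genes did. After adjustment none of these passed in edgeR.

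The gene that passed was Ppp1r15a (GADD34, chr7:45522916-45526268), which brings a phosphatase to eIF2 alpha. In treated homozygous lines it was at 65.9, 46.4 and 58.6 CPM, against 76.4, 55.8 and 70.9 CPM untreated. In treated heterozygous lines it was at 176, 224, 90.0 and 123 CPM, against 73.1, 73.6, 42.6 and 70.0 CPM untreated. The homozygous response was lower by 1.46 ± 0.20 on the log2 scale (adjusted p = 0.00772), and every homozygous line moved down and every heterozygous line up. Without any 1 of the 3 homozygous lines, or without pairing, no gene passed against heterozygous lines, and without the heterozygous line E2.6 13 did. In WT lines it was at 157, 98.3 and 179 CPM treated, against 75.1, 66.1 and 75.6 CPM untreated, and the difference of -1.22 ± 0.22 did not pass in edgeR (adjusted p = 0.103) but passed in DESeq2 (adjusted p = 0.000546).

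Near the threshold against heterozygous lines stood Il6, Cd274, Ncoa7 and Tlr2 (adjusted p = 0.0561 each), followed by Pml (0.0650), Csrnp1 and Tor3a (0.0755 each), all lower in homozygous lines and chosen after their values were seen, other than Il6. All 7 passed in DESeq2 (adjusted p between 2.63e-05 and 0.00401), and 6 of them, all but Tlr2, also passed there against WT lines (between 0.000187 and 0.0390). Ifit2, Tlr3 and Zfp36 were likewise lower at an edgeR adjusted p of 0.0755 each, and were picked for these values. They passed in DESeq2 against heterozygous lines (adjusted p = 0.000426, 0.00401 and 0.00404). Against WT lines Ifit2 and Tlr3 passed there (adjusted p = 0.0224 and 0.0160). Il6 rose by 4.90 in heterozygous and 4.54 in WT lines, and its homozygous change of 1.24 was lower by 3.66 ± 0.66 than in heterozygous and by 3.31 ± 0.70 than in WT lines (adjusted p = 0.197 against WT). Ncoa7 moved by -0.17, -0.23 and -0.19 in E1.4, E2.2 and E2.9. The p-values do not show that the other genes responded alike.

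**Figure D5:**
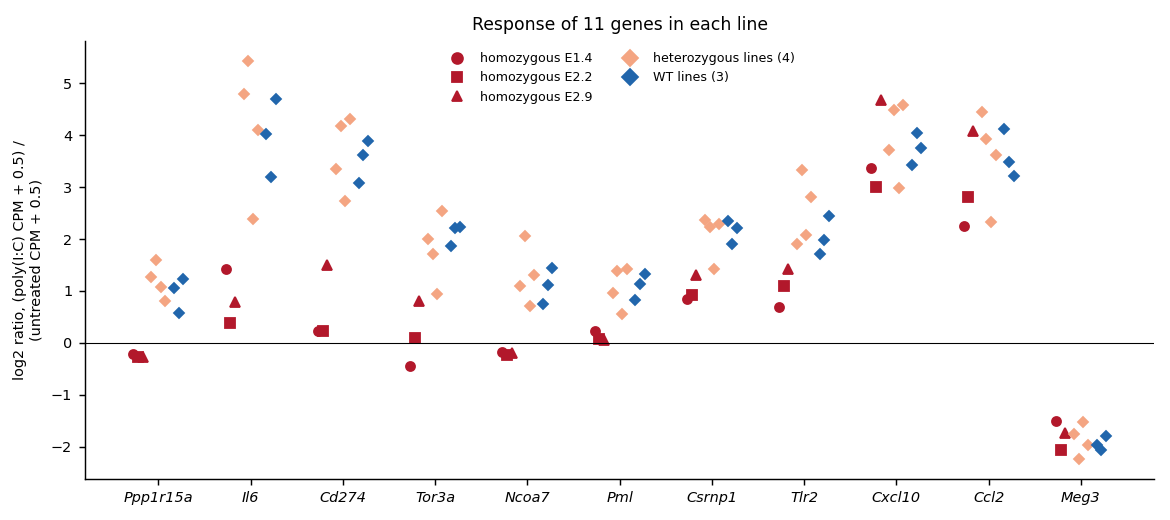
Log2 ratio of treated to untreated level (pseudocount 0.5 CPM) of 11 genes, 1 point per line, with homozygous lines in red, heterozygous in orange and WT in blue. For Ppp1r15a the homozygous lines lie between -0.27 and -0.21 and the other lines between 0.57 and 1.60, whereas for Cxcl10, Ccl2 and Meg3 the genotypes overlap.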

How the data were processed

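The authors deposited expected counts (RSEM estimates) of reads per gene for each library, made with STAR and RSEM on mm10, per the submitters' processing notes; no version, annotation or strand setting is named there. Reads that fit near-identical genes are shared among them, and 6.11% to 11.2% of a library's values were fractional. Per the labels' protocols, libraries were stranded mRNA preparations.

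Expected counts were rounded. Genes were filtered (filterByExpr, minimum count 10) and scaled by TMM in edgeR 4.0.16 (R 4.3.3), leaving 13364 genes. The quasi-likelihood fit held 30 libraries of 3689144 to 14879227 counts, including those treated with antimycin/oligomycin, which share the spread. It had 1 term per line (the replicate block), and 1 poly(I:C) term and 1 antimycin/oligomycin term per genotype. The titles give the same line name in each treatment, and same-line libraries deviated together (r between 0.342 and 0.765 in 30 pairs), so lines were paired. The 6 WT libraries with a density label were not used. CPM are counts per 1000000 after TMM scaling. Names and coordinates are from GENCODE vM21 (GRCm38), promoters from RefSeq. The test was tried on simulated data.

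The genes named were the 15 largest rises and 12 largest falls (mean log2 CPM of at least 1, same direction in 3 lines), the 4 members of each of 27 lists with the smallest p, and 13 others; 1 of these genes, and the count of 1 list that holds it, are not reported here. Tlr3, Ikbke, Irf3, Ifit2, Pml, Tor3a, Cd274, Tgtp2, H2-K1, Csf1, Tnf, Rela, Bcl3, Vcam1, Ptgs2, Tlr2, Clec4e, Csrnp1, Dnm3os, Col1a1 and Ncoa7 fall outside this rule and were chosen after their values were seen. Samples and lists were chosen with earlier results of these data known. Alternatives were other scaling, no filter, DESeq2 1.42.0, fewer groups, no pairing and leaving out each line.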

Additional observations from a re-analysis of the deposited data

Results flagged for a closer look

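The response of Ppp1r15a to poly(I:C) differed between genotypes. The log2 response in homozygous minus heterozygous lines was -1.46 ± 0.20 (adjusted p = 0.00772, edgeR), with 3 of 3 homozygous lines lower after poly(I:C) and 4 of 4 heterozygous lines higher. In homozygous minus WT lines it was -1.22 ± 0.22 (adjusted p = 0.103), again with every homozygous line lower and every WT line higher, and this difference did not pass in edgeR but passed in DESeq2 (adjusted p = 0.000546). The homozygous libraries are shared by both comparisons.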

How the results depend on the processing

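The 1309 genes changed by poly(I:C) in homozygous lines became 1320 with RLE scaling, 1370 with no filter and 1391 in DESeq2. The count was 171 with no replicate block, 41 when the untreated and poly(I:C) libraries of the homozygous lines were fitted alone, 30 with all 3 treatments of those lines alone, and between 418 and 2727 when 1 line was left out. The 2 fits on homozygous lines alone have fewer samples to estimate the spread, and for the others the cause was not tested. Against WT lines the 0 genes became 1 with 3 treatments of those 2 genotypes, 14 in DESeq2 and 165 with no filter, and ranged from 0 to 2 without 1 line. Against heterozygous lines the 1 gene became 0 with the compared groups alone or with no replicate block, 20 in DESeq2 and 119 with no filter, and ranged from 0 to 13 without 1 line. The cause of these shifts was not tested. Of 124 named genes 103 passed; the side of the threshold was kept by 120 with RLE scaling, 120 in DESeq2, 110 with no filter, 79 without line E2.9, 50 with no replicate block, and, of the 114 tested in those fits, by 41 with the compared groups alone and 32 with 3 treatments of the compared genotypes. No alternative turned a direction. Depth limits genes with few counts, such as Ifnb1 and Tnf.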
